A study of Mus musculus with 72 samples.

Results

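The genes described here are 9 mouse liver genes of bile acid synthesis, transport and control, namely the cytochrome P450 enzymes Cyp7a1, Cyp8b1, Cyp27a1 and Cyp7b1, the transporters Slc10a1, Abcb11 and Abcb4, and the nuclear receptors Nr1h4 and Nr0b2. They were chosen by symbol among the 22823 genes of the liver gene count table, and all 9 were found and passed the filter on low counts. The libraries came from C57BL/6 mice 8 to 12 weeks old, housed singly and fed ad libitum for 11 days with either a diet lacking methionine and choline (MCD diet) or its isocaloric control. All mice spent 10 days in a light-dark cycle and day 11 in constant darkness, during which livers were taken every 4 h, at the 6 circadian times (CT) from CT00 to CT20. Each of the 12 groups of diet and time had 3 mice, 2 males and 1 female by the sample labels (the husbandry protocol speaks of males only), which gave 18 libraries per diet. The mice carried no transgene or deletion, and both diets shared the housing and the day in darkness.

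Bile acids are made from cholesterol in hepatocytes. The classical route starts with Cyp7a1 and the alternative route with Cyp27a1 and Cyp7b1, while Cyp8b1 directs the product towards cholic acid. Slc10a1 takes bile acids up again from blood, Abcb11 pumps them into bile and Abcb4 moves phosphatidylcholine to the outer side of the canalicular membrane, and the bile acid receptor Nr1h4 (FXR) induces Nr0b2 (SHP), a repressor of synthesis genes.

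Library totals, in M counts, ran from 52.6 to 86.7. Levels are given in CPM, the counts per M counts of a library after scaling by the trimmed mean of M values (TMM), and differences on the log2 scale as MCD minus control diet, corrected for sex. One male control library at CT08, called control CT08 (a) because both male control libraries of that time carry the same column name, stood apart: its Slc10a1 (307.9 CPM), Cyp27a1 (207.5 CPM) and Cyp8b1 (97.3 CPM) were below those of all 17 other control libraries and its Abcb4 (472.3 CPM) was above them all. The 11 macrophage markers summed to 812.7 CPM in this library against 329.5 to 740.1 CPM in the other controls, the 9 stellate cell markers to 636.7 CPM against 281.8 to 428.5 CPM, and the 10 pericentral hepatocyte markers to 1738 CPM against at least 4418 CPM. The libraries also fell into 2 kinds by the mitochondrial transcript mt-Nd6, 21 with 41.6 to 118.9 CPM (8 control, 13 MCD) and 15 with 414.1 to 924.6 CPM (10 control, 5 MCD). The labels name no batch behind this split, so the mean diet effect and the relations between genes are also given within each kind where they change. The other tests were not run within a kind, and the kind was added to their model instead.

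Averaged over the 6 times, 5 of the 9 genes differed between the diets by edgeR's quasi-likelihood test with Benjamini-Hochberg adjustment: Slc10a1, Cyp7b1, Cyp8b1 and Cyp27a1 were lower on the MCD diet and Abcb4 was higher. The same test called 46.6% of the 20249 genes tested, 25.3% as higher and 21.2% as lower, so 5 of 9 is close to the share of all genes. The median difference of the 9 genes was -0.44 against 0.02 over all genes tested. Cyp7a1, Abcb11, Nr0b2 and Nr1h4 did not pass the adjusted threshold of 0.05. The plot of mean diet differences shows the 9 values with all libraries and under 4 other settings.

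**Figure D1:**
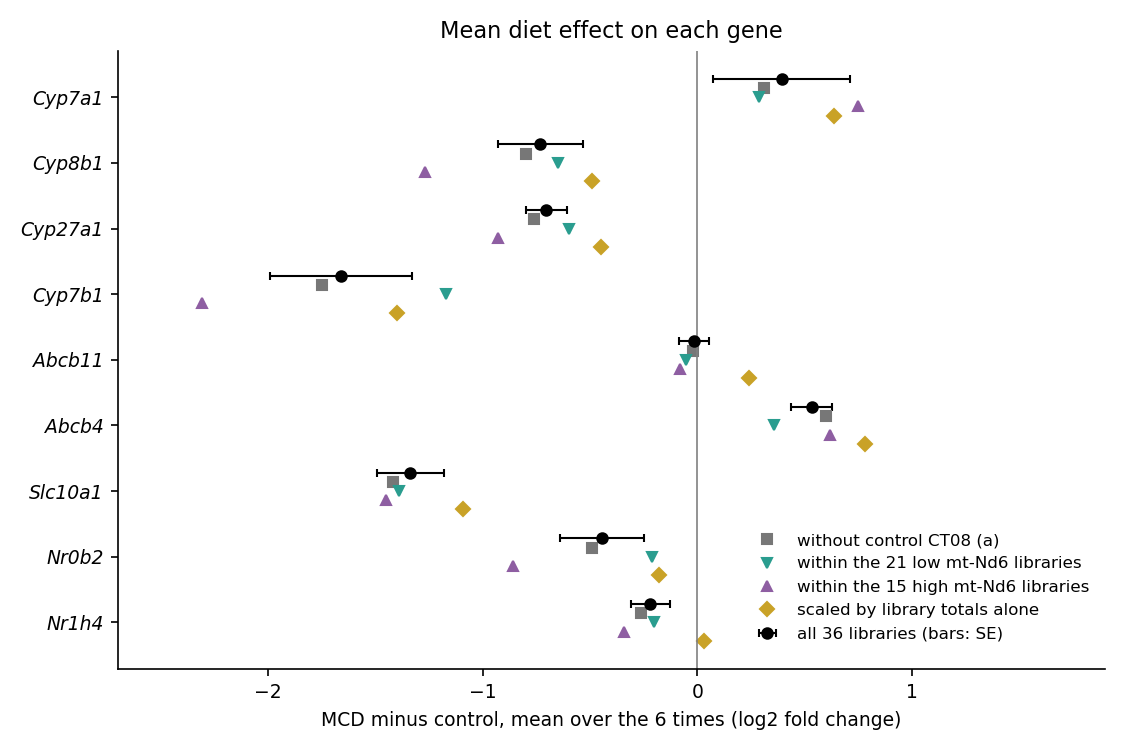
Mean difference over the 6 times between the MCD and the control diet for each gene (x axis, log2), in all 36 libraries (circles, bars ± 1 SE), without control CT08 (a), within the libraries of low or high mt-Nd6, and scaled by library totals alone. Slc10a1 lies from -1.09 to -1.45, Cyp7b1 from -1.17 to -2.31, and Abcb4 is above 0 in all 5 settings.

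Among the synthesis enzymes, Cyp7a1, the rate-limiting step of the classical route, ran from 10.7 to 502.7 CPM on the control diet (median 132.0) and from 26.7 to 436.3 CPM on the MCD diet (median 156.1). All 18 MCD libraries lay inside the control range, and the mean difference was 0.39 ± 0.32 (SE, adjusted p = 0.334, 95% interval -0.23 to 1.02). It was 0.64 scaled by library totals alone (adjusted p = 0.08), and with 1 library left out it ran from 0.21 without MCD CT00 replicate 2 (adjusted p = 0.606) to 0.64 without the control female of CT08 (adjusted p = 0.065). The largest gap was at CT04, where the control libraries held 10.7, 16.3 and 33.3 CPM and the MCD libraries 63.3, 136.0 and 45.4 CPM. These 3 against 3 libraries did not overlap, but the difference of 2.16 ± 0.80 missed the threshold (adjusted p = 0.0628 by edgeR, and 0.0224 by DESeq2). Scaled by library totals alone it was 2.43 (adjusted p = 0.0249), and it was called in 6 of the 36 fits that left out 1 library.

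Cyp8b1, the 12α-hydroxylase, had 97.3 to 685.3 CPM on the control diet (median 347.3) and 23.2 to 414.1 CPM on the MCD diet (median 202.5). It fell by 0.73 ± 0.20 (adjusted p = 0.00387), although 15 of the 18 MCD libraries lay inside the control range. The 2 lowest MCD libraries were a male at CT12 (23.2 CPM) and a male at CT04 (65.5 CPM). Within the libraries of low mt-Nd6 the difference was -0.65 (adjusted p = 0.13), and within those of high mt-Nd6 it was -1.27 (adjusted p = 0.0144).

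Cyp27a1, the mitochondrial sterol 27-hydroxylase, held 207.5 to 532.3 CPM on the control diet (median 460.4) against 169.9 to 352.9 CPM on the MCD diet (median 263.9). It fell by 0.70 ± 0.09 (adjusted p = 1.18e-06), and by 0.45 scaled by library totals alone (adjusted p = 5e-06). Apart from control CT08 (a), every control library had at least 351.0 CPM, and at CT00, CT04, CT12, CT16 and CT20 all 3 MCD libraries were below all 3 controls. Its coefficient of variation over libraries was 18.8% on the control and 17.3% on the MCD diet, the smallest of the 9 genes on either diet.

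Cyp7b1, the oxysterol 7α-hydroxylase, ran from 10.1 to 253.4 CPM on the control diet (median 102.8) and from 7.22 to 67.1 CPM on the MCD diet (median 27.5). Over all libraries it fell by 1.66 ± 0.33 (adjusted p = 2.02e-04), and 5 MCD libraries lay below every control. The means were 155 ± 77 and 34.1 ± 16.2 CPM in males (SD, n = 12 each) and 13.1 ± 2.7 and 9.70 ± 2.02 CPM in females (n = 6 each). The low end of the control range was held by the 6 females, at 10.1 to 17.3 CPM, and control CT08 (a), a male, lay among them at 16.1 CPM. The difference was -1.17 within the libraries of low mt-Nd6 (adjusted p = 0.0818) and -2.31 within those of high mt-Nd6 (adjusted p = 0.00527).

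Slc10a1 (NTCP), the sodium-dependent uptake transporter of the blood side, ran from 307.9 to 1103 CPM on the control diet (median 890.7) and from 143.4 to 676.6 CPM on the MCD diet (median 336.9). Its means were 852 ± 185 and 342 ± 124 CPM (SD, n = 18 each), and it fell by 1.34 ± 0.16 (adjusted p = 1.47e-07). Without control CT08 (a) the lowest control library held 638.2 CPM, so the only MCD library above any other control was a male at CT08 with 676.6 CPM. The difference was -1.39 within the libraries of low mt-Nd6 and -1.45 within those of high mt-Nd6, with adjusted p = 0.00151 and 0.00135. In bulk libraries fewer cells of a type and less RNA per cell cannot be told apart. Of the 7 hepatocyte markers 4 were lower (21.2% of all genes were), 1 higher (25.3%) and 2 not called, with a median of -0.27. Serpina1a was lower by 0.77 (adjusted p = 3.31e-08) and Ahsg was higher by 0.25 (adjusted p = 0.00517). Alb (0.14, adjusted p = 0.187) and Apob (-0.04, adjusted p = 0.576) were not called.

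Slc10a1 was also the only one of the 8 genes with more than 1 exon bin (Cyp8b1 has 1) whose use of its exon bins differed between the diets (adjusted p = 6.12e-06, edgeR's exon usage test with Simes adjustment), where 3.48% of 11694 genes were called. The bin that moved was bin 14, with a relative difference of -0.71 beyond that of the whole gene. This bin took 0.61 to 2.09% of the gene's bin counts in the 16 control libraries with complete bin files (median 0.99%) and 0.095 to 1.36% in the 18 MCD libraries (median 0.52%), so the groups overlapped. Its mean share was 1.35 ± 0.49% in control males (SD, n = 10) and 0.69 ± 0.32% in MCD males (n = 12), and 0.77 ± 0.15% in control females and 0.33 ± 0.18% in MCD females (n = 6 each). Leaving out the 12 females ended the call (adjusted p = 0.365), while leaving out either set of males kept it (adjusted p = 1.5e-09 and 0.0134).

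The deposited bins carry numbers without coordinates, but all 9 genes have as many bins in the deposited files as in the GENCODE M21 annotation of GRCm38 flattened the same way. In coordinate order bin 14 is there the upstream first exon of Slc10a1, chr12:80968611-80968705 on the minus strand (95 bases, exonic, at the 5′ end), and a second transcript starts at 80968079, inside the first intron of the longer one. The 250 bases before each of these 2 starts are shown because bin 14 is the first exon after the upstream one. They are RefSeq sequences of GRCm38.p6, 5′ to 3′ on the minus strand, from chr12:80968706-80968955 for the upstream and chr12:80968080-80968329 for the downstream start. Capitals mark the letters TTTATA, which are TATAAA on the other strand, beginning 128 bases before the upstream start, and TATAAA on either strand occurred in 13.6% of the 32851 windows in the table, each of 250 bases before to 50 after a start.
Slc10a1 upstream start: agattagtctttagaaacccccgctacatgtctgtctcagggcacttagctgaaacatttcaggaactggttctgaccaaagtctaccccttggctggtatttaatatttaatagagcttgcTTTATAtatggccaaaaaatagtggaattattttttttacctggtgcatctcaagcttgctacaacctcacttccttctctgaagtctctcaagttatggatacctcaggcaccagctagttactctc
Slc10a1 downstream start: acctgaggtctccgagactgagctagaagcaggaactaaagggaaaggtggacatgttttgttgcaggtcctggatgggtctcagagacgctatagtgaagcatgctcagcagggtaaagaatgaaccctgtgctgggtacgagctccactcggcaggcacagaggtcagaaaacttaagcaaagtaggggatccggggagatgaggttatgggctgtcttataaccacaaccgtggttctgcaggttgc

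Abcb11 (BSEP), the canalicular bile salt export pump, had nearly the same mean on both diets, 681 ± 221 and 679 ± 252 CPM (SD, n = 18 each). Its range was 301.5 to 975.0 CPM on the control diet and 216.9 to 1124 CPM on the MCD diet, so the groups overlapped almost wholly. The mean difference was -0.02 ± 0.07 (adjusted p = 0.882), and its 95% interval ran from -0.15 to 0.12. Scaling by library totals alone moved the median of all genes from 0.02 to 0.27 and the share of higher genes among those called from 54.4 to 87.3%, and under it Abcb11 was higher by 0.24 (adjusted p = 0.00525). This gene overlaps antisense Gm13613 by 136 exonic bases.

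Abcb4 (MDR2), the phospholipid floppase, was the one gene of the 9 that rose. It ran from 170.6 to 472.3 CPM on the control diet (median 204.6) and from 219.1 to 574.0 CPM on the MCD diet (median 315.6). It was higher by 0.53 ± 0.09 (adjusted p = 4.7e-05), and by 0.60 without control CT08 (a) (adjusted p = 2.31e-07). With that library set aside, no control exceeded 273.9 CPM, and at CT00, CT04, CT12, CT16 and CT20 all 3 MCD libraries stood above all 3 controls. Within the libraries of low mt-Nd6 the difference was 0.36 (adjusted p = 0.0974), and within those of high mt-Nd6 it was 0.62 (adjusted p = 0.00115).

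Nr1h4, the bile acid receptor FXR, held 91.3 to 193.0 CPM on the control diet (median 136.7) and 61.7 to 150.1 CPM on the MCD diet (median 111.8). The difference of -0.22 ± 0.09 lay at the threshold (adjusted p = 0.0505, and 0.0168 without control CT08 (a)). Scaled by library totals alone it was 0.03 (adjusted p = 0.725). Nr0b2, which encodes the repressor SHP, ran from 8.05 to 47.1 CPM on the control diet (median 24.9) and from 4.50 to 50.6 CPM on the MCD diet (median 17.7). Its mean difference of -0.44 ± 0.19 missed the threshold as well (adjusted p = 0.0648, and 0.0453 without control CT08 (a)), and it was -0.18 scaled by library totals alone (adjusted p = 0.406). DESeq2 called both receptors, Nr1h4 at adjusted p = 0.0282 and Nr0b2 at 0.0345. Without control CT08 (a) 7 of the 9 genes were called in place of 5, and 10049 of all genes in place of 9426, and the 5 genes called with all libraries were called in each of the 36 fits that left out 1 library.

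The levels at each time are shown in the plot of the 9 genes against circadian time. The number of the 9 genes that differed between diets was 3 at CT00 (12.6% of all genes did), while CT04 had 5 (18.2%), CT08 had 0 (1.3%), CT12 had 2 (15.2%), CT16 had 1 (12.5%) and CT20 had 3 (11.3%). Slc10a1 was the gene called most often, with differences from -1.34 at CT20 (adjusted p = 0.0248) to -1.59 at CT04 (adjusted p = 0.0056), and it missed the threshold at CT08 (-0.64, adjusted p = 0.537). With 1 library left out that value ran from -0.35 without the control female of CT08 (adjusted p = 0.848) to -1.04 without control CT08 (a) (adjusted p = 0.0787). At CT08 its controls held 307.9, 991.4 and 1065 CPM and the MCD libraries 676.6, 480.5 and 360.9 CPM, so only control CT08 (a) was below the MCD libraries.

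**Figure D2:**
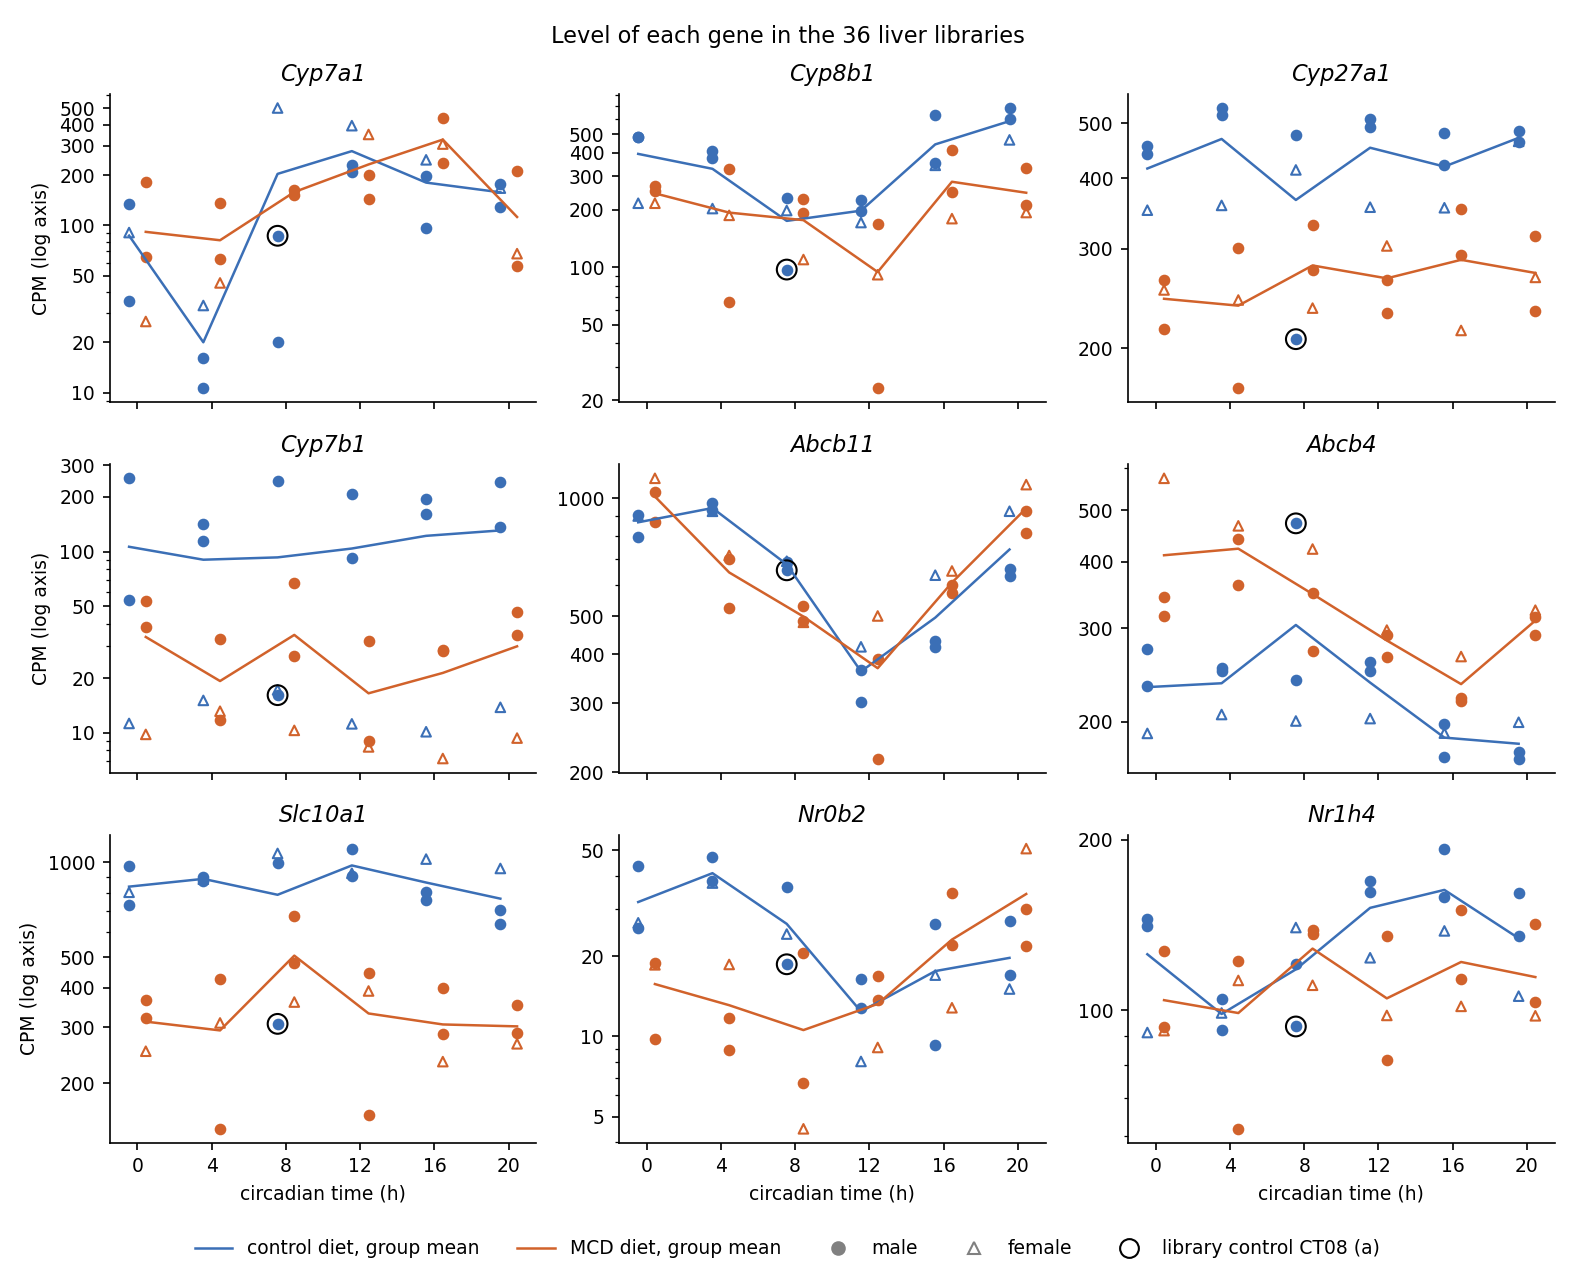
TMM-scaled level of each gene (y axis, CPM, log scale) against circadian time (x axis, h) in the 36 liver libraries, with filled circles for males, open triangles for females, lines for the group means and a ring around control CT08 (a). The MCD points of Slc10a1 and Cyp27a1 lie below the controls at every time but 8 h, the Abcb11 lines cross, and the female Cyp7b1 points stay at or below 17.3 CPM.

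Cyp27a1 was lower at CT00 (-0.76, adjusted p = 0.0326), CT04 (-0.97, adjusted p = 0.00551), CT12 (-0.75, adjusted p = 0.0308) and CT20 (-0.79, adjusted p = 0.028). At CT08 its difference was -0.40 with all libraries (adjusted p = 0.514) and -0.71 without control CT08 (a) (adjusted p = 0.0326). Abcb4 was higher at CT00 (0.82, adjusted p = 0.0216), CT04 (0.84, adjusted p = 0.0136) and CT20 (0.77, adjusted p = 0.0321). The other 2 calls were at CT04, where Abcb11 (-0.56, adjusted p = 0.0251) and Nr0b2 (-1.61, adjusted p = 0.0228) were lower. Scaled by library totals alone, Abcb11 was at -0.26 at CT04 (adjusted p = 0.277) and was higher at CT16 (0.59, adjusted p = 0.0174) and CT20 (0.60, adjusted p = 0.0185), and Cyp27a1 was at -0.39 at CT12 (adjusted p = 0.0747). Without the sex term the Abcb11 call at CT04 was lost too (adjusted p = 0.0719). With 3 libraries a group these calls were fragile, and of the 14 only that of Slc10a1 at CT04 held in all 36 fits that left out 1 library. In a fit of the 6 libraries of CT04 alone that call was lost as well (adjusted p = 0.0717). Cyp7b1 had a negative difference at every time without a call, with -2.05 at CT12 (adjusted p = 0.084) and -2.08 at CT16 (adjusted p = 0.0882). DESeq2 called Cyp7b1 at both of these times (adjusted p = 0.0392 and 0.0365).

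The Slc10a1 call was lost at CT00 without control replicate 1 or MCD replicate 1 or 3 (adjusted p up to 0.0721), at CT12 without MCD replicate 2 (0.0633), at CT16 without MCD replicate 3 (0.08) and at CT20 without control replicate 2 or 3 or MCD replicate 1 or 3 (up to 0.0887). That of Cyp27a1 was lost at CT00 and at CT12 without replicate 1 or 2 of either diet (adjusted p up to 0.142 and 0.157), at CT04 without MCD replicate 1 (0.0516) and at CT20 without any 1 library of that time but MCD replicate 2 (up to 0.126). That of Abcb4 was lost at CT00 without control replicate 1 or 3 or MCD replicate 3 (adjusted p up to 0.216), at CT04 without control replicate 3 or MCD replicate 1 (up to 0.0663) and at CT20 without any 1 of the 6 libraries (up to 0.102). At CT04 Abcb11 was lost without control replicate 1 or 2 or MCD replicate 1 or 3 (up to 0.136), and Nr0b2 without control replicate 2 or 3 or MCD replicate 1 or 2 (up to 0.108). Replicate 3 is the female in every group.

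The diets did not overlap for 4 of the 9 genes at CT00 (27.8% of all genes did not overlap there). CT04 had 6 such genes (33.9%), CT08 had 1 (13.2%), CT12 had 4 (29.8%), CT16 had 3 (35.2%) and CT20 had 4 (29.1%). None of the 9 genes had a diet difference that changed with time at an adjusted p under 0.05, where 0.909% of all genes did (184 genes). The closest were Abcb11 (adjusted p = 0.0858) and Nr0b2 (adjusted p = 0.129) by edgeR, and 2 of the 9 had an unadjusted p under 0.05, as did 2980 of all 20249 genes. DESeq2 called both, at adjusted p = 0.00652 and 0.00952.

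**Figure D3:**
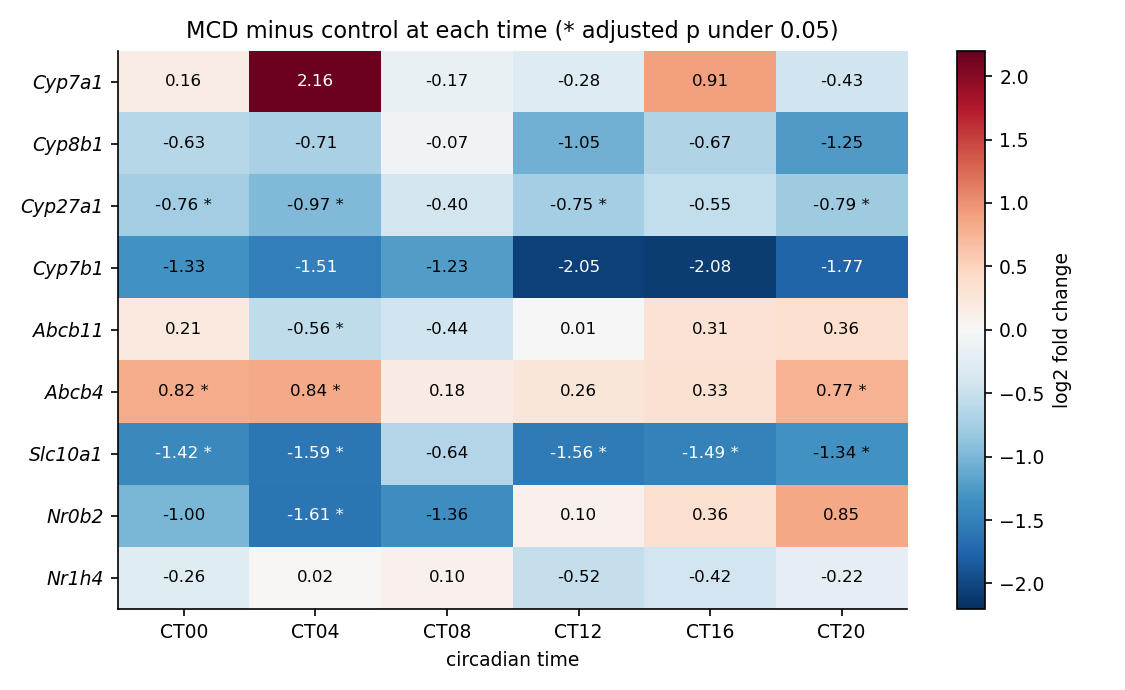
Difference between the MCD and the control diet (colour and printed value, log2) for each gene (rows) at each circadian time (columns), with a star where the adjusted p was under 0.05. The rows of Slc10a1, Cyp27a1, Cyp8b1 and Cyp7b1 are negative throughout. Nr0b2 is at -1.61 at CT04 and at 0.85 at CT20, where it was not called (adjusted p = 0.267) and was 0.28 without the MCD female of that time (50.6 CPM).

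In a test of 24 h waves fitted to each diet, 6 of the 9 genes were rhythmic on the control diet (17.8% of all genes were) and 3 on the MCD diet (28.2%). The 6 were Abcb11 (adjusted p = 1.44e-06), Cyp7a1 (0.0109), Cyp8b1 (0.0188), Nr0b2 (0.0234), Nr1h4 (0.0457) and Abcb4 (0.046), and the 3 were Abcb11 (3.86e-07), Abcb4 (0.00567) and Nr0b2 (0.0127). Cyp27a1, Cyp7b1 and Slc10a1 passed on neither diet. Cyp7a1 had the widest wave, with a fitted peak-to-trough range of 3.06 ± 0.73 log2 on the control diet and 2.21 ± 0.53 on the MCD diet, where it missed the threshold by edgeR (adjusted p = 0.0911) and passed it by limma voom (adjusted p = 0.0402). Without control CT08 (a) the calls of Cyp8b1 (adjusted p = 0.0658) and Abcb4 (0.238) on the control diet were lost, and those of Abcb4 and Nr1h4 held in only 10 and 16 of the 36 fits that left out 1 library. Adding the mt-Nd6 kind to the model ended the Nr1h4 call (adjusted p = 0.0585). The Nr0b2 call was lost on the control diet without 1 of 4 control libraries (CT00 replicate 1, CT04 replicate 2, CT12 replicate 3 or CT16 replicate 2, adjusted p up to 0.0674) and on the MCD diet without 1 of 3 (CT08 replicate 2 or 3 or CT20 replicate 3, up to 0.0761).

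The wave itself differed between the diets for Abcb11 (adjusted p = 0.0139) and Nr0b2 (adjusted p = 0.0234), 2 of the 9 genes where 4.87% of all genes differed. On the control diet Abcb11 stood at 905, 799 and 901 CPM at CT00, at 931, 975 and 926 CPM at CT04 and at 691, 655 and 689 CPM at CT08. It was lowest at CT12 (366, 302 and 418 CPM), then 418, 433 and 636 CPM at CT16 and 635, 659 and 926 CPM at CT20. On the MCD diet its highest groups were CT00 (869, 1038 and 1124 CPM) and CT20 (818, 928 and 1083 CPM). It had already dropped to 526, 700 and 714 CPM at CT04, below all 3 controls of that time, and to 530, 485 and 483 CPM at CT08, again below all 3 controls. It held 217, 388 and 501 CPM at CT12 and 574, 601 and 652 CPM at CT16, where the diets overlapped. The fitted peak was at 1.48 ± 0.44 h on the control diet and 22.7 ± 0.49 h on the MCD diet, a difference of -2.79 ± 0.66 h, with ranges of 1.30 and 1.43 log2.

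Nr0b2 on the control diet was highest at CT04 (38.2, 47.1 and 37.6 CPM) and CT00 (43.5, 25.6 and 26.7 CPM), and lowest at CT12 (12.7, 16.4 and 8.05 CPM). It held 24.2, 18.6 and 36.5 CPM at CT08, 26.5, 9.29 and 17.0 CPM at CT16 and 27.0, 17.0 and 15.1 CPM at CT20. On the MCD diet the highest groups were CT20 (21.9, 30.1 and 50.6 CPM) and CT16 (22.0, 34.4 and 12.8 CPM), which overlapped the controls. The MCD libraries held 9.76, 18.8 and 18.6 CPM at CT00 and 11.8, 8.90 and 18.6 CPM at CT04, below all controls at both times. They held 20.5, 6.66 and 4.50 CPM at CT08 and 13.7, 16.9 and 9.08 CPM at CT12. The fitted peak was at 2.63 ± 0.77 h on the control diet and 19.3 ± 1.05 h on the MCD diet, a difference of -7.36 ± 1.31 h. This call was lost without an MCD male at CT04 or one at CT16 (adjusted p up to 0.0564), whereas that of Abcb11 held in all 36 fits but not without the sex term (adjusted p = 0.0504).

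For scale, the 15 of 17 core clock genes that had a fitted range above 1 log2 on both diets all peaked earlier on the MCD diet, with a median difference of -1.31 h, from -2.66 h for Per1 to -0.54 h for Cry1. Abcb4 peaked at 6.84 ± 1.19 h on the control diet and at 3.05 ± 0.56 h on the MCD diet, but its wave did not pass the test of a difference (adjusted p = 0.209). Cyp7a1 peaked at 15.2 ± 0.91 and 13.4 ± 0.92 h and Cyp8b1 at 20.6 ± 0.68 and 21.8 ± 1.80 h, neither called different. These peak times are a description from 6 time points and 1 day.

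**Figure D4:**
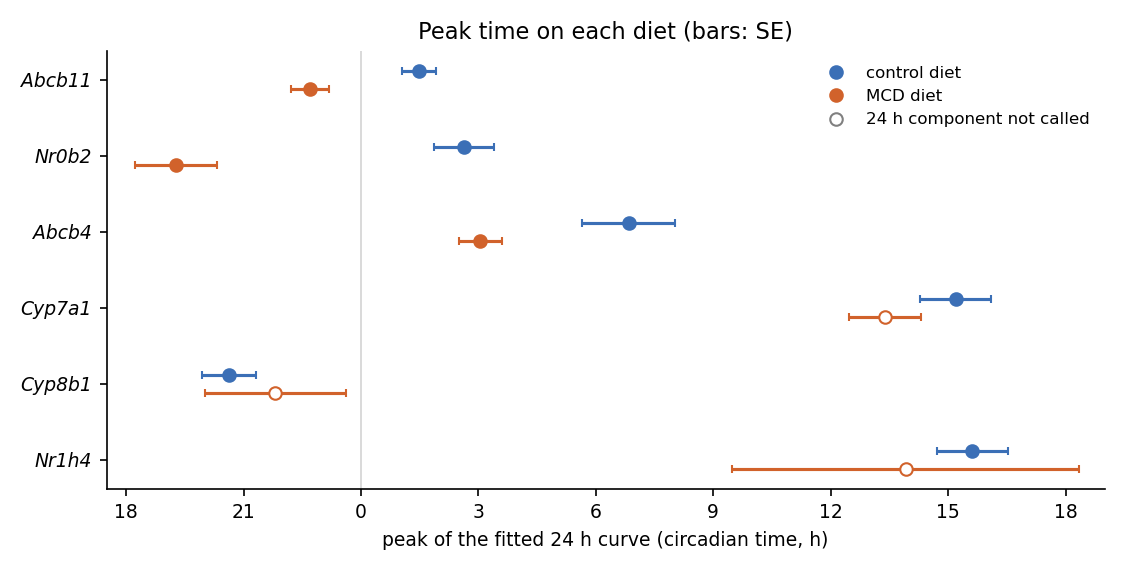
Fitted peak time (x axis, h of circadian time, with 18 to 24 h drawn to the left of 0 h; bars ± 1 SE) of the 6 genes called rhythmic on at least 1 diet, with open circles where a diet's wave was not called. The MCD minus control difference is -7.36 h for Nr0b2 and -2.79 h for Abcb11.

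The 250 bases before the annotated start of Nr0b2 and of Abcb11 are shown because these are the 2 genes whose wave differed between the diets. Both are RefSeq sequences of GRCm38.p6, 5′ to 3′ on the strand of the gene, from chr4:133553126-133553375 (plus strand) and chr2:69342617-69342866 (minus strand). Capitals in Nr0b2 mark the E-box letters CACGTG, beginning 195 bases before the start, and TATAAA, beginning 28 bases before it. CACGTG occurred in 7.15% of the 32851 windows and TATAAA in 13.6%, both strands counted. Abcb11 held neither, and it held AGGTCA on the other strand, beginning 56 bases before the start (not in capitals), as did 16.3% of windows on either strand.
Nr0b2: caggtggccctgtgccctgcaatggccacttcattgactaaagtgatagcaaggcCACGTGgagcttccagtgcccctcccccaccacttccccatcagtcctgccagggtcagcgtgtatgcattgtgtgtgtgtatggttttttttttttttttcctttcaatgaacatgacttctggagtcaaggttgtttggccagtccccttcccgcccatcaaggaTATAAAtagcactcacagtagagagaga
Abcb11: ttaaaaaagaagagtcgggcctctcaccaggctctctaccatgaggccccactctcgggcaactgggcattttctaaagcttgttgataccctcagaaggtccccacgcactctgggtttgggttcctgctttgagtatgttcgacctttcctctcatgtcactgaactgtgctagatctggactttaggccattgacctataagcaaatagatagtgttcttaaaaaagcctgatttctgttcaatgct

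Of the 7 genes with an entry in the RefSeq table, Nr0b2 alone held CACGTG in the window of 250 bases before to 50 after the start. AGGTCA was found for Abcb11, Nr1h4 and the downstream start of Slc10a1, and TATAAA for Nr0b2, Cyp8b1 and the upstream start of Slc10a1. The letters TTATGTAA, TTACGTAA and CAAGGTCA, found in 0.938, 0.119 and 1.56% of windows, were in none of them.

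Between the sexes 2 of the 9 genes differed (9.44% of all genes did). Cyp7b1 was lower in females by 2.56 ± 0.39 (adjusted p = 6.21e-05), and Abcb11 was higher in females by 0.26 ± 0.07 (adjusted p = 0.0217). On the control diet the 12 males held 16.1 to 253.4 CPM of Cyp7b1 (median 150.9) and the 6 females 10.1 to 17.3 CPM (median 12.6). On the MCD diet the males held 9.05 to 67.1 CPM (median 32.6) and the females 7.22 to 13.2 CPM (median 9.58). The sexes overlapped only through control CT08 (a) and through MCD males of 11.7 CPM at CT04 and 9.05 CPM at CT12. The Abcb11 call was lost without any 1 of 3 females, those of the control diet at CT16 and CT20 and of the MCD diet at CT12 (adjusted p up to 0.0731).

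No gene of the 9 had a diet difference that differed between the sexes at an adjusted p under 0.05, where 1.77% of all genes did. An unadjusted p under 0.05 was found for 3 of the 9 and for 2483 of all 20249 genes. For Cyp7b1 the female minus male difference of the diet effect was 1.82 ± 0.58 (adjusted p = 0.13), and 1.98 without control CT08 (a) (adjusted p = 0.0187), the effect in females being nearer to 0. For Abcb4 it was 0.58 ± 0.17 (adjusted p = 0.0847), and 0.50 without control CT08 (a) (adjusted p = 0.0251). The control females held 190.2 to 206.4 CPM of Abcb4 and the MCD females 265.3 to 574.0 CPM, which did not overlap. Control males held 170.6 to 472.3 CPM and MCD males 219.1 to 441.3 CPM, which did. DESeq2 called both genes with all libraries (adjusted p = 0.0377 and 0.0227). For Cyp7a1 it had the opposite sign, -1.59 ± 0.64 (adjusted p = 0.268).

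**Figure D5:**
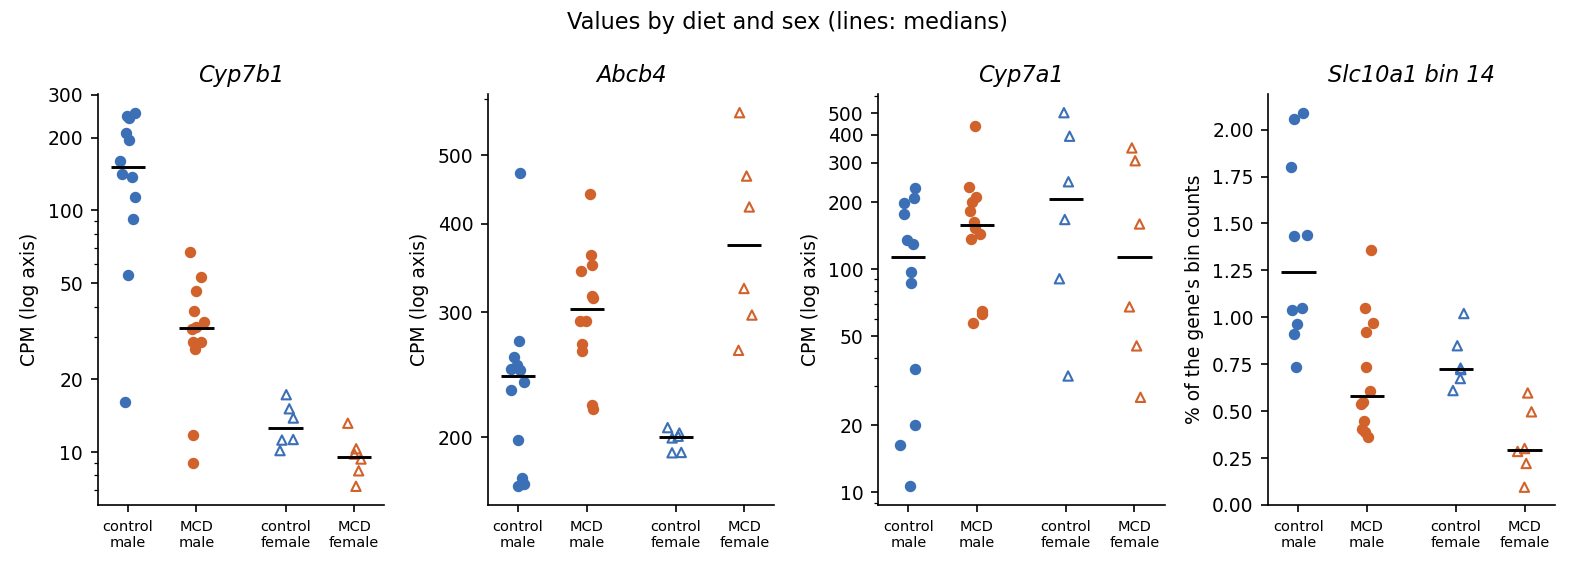
Levels of Cyp7b1, Abcb4 and Cyp7a1 (y axis, CPM, log scale) in each liver library by diet and sex, and the share of Slc10a1 bin counts in bin 14 (y axis, %), with black lines at the medians. Female Cyp7b1 is low on both diets, and the 6 MCD females lie above the 6 control females for Abcb4.

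Cyp7b1 moved with other genes known to be higher in male liver. Of 12 such genes 9 were lower on the MCD diet (21.2% of all genes were) and 0 higher, among them Hsd3b5 (-2.60), Cyp4a12b (-2.36) and Slco1a1 (-2.32). Of 12 genes known to be higher in female liver, 6 were higher on the MCD diet (25.3% of all genes were) and 1 lower. The diet effect differed between the sexes for 6 of the 12 male-biased and 6 of the 12 female-biased genes (1.77% of all genes did). The female minus male difference was positive for the 6 male-biased genes (median 1.82 over the 12) and negative for the 6 female-biased ones (median -3.53 over the 12). All 12 genes of each list differed between the sexes here (medians -3.41 and 6.33), where 9.44% of all genes did. The lists were chosen with these data known. The part of these sex-biased genes in the Cyp7b1 difference was not tested.

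Per kilobase of exon, so that genes can be set against each other, Slc10a1 was the most abundant of the 9 on the control diet, at 388 ± 84 CPM per kb (SD, n = 18). Cyp27a1 followed at 199 ± 37, Cyp8b1 at 181 ± 90 and Abcb11 at 132 ± 43 CPM per kb, and these 3 neighbours differed by less than the larger SD of each pair. Nr1h4 (57.3 ± 13.0), Cyp7b1 (49.7 ± 42.8), Cyp7a1 (37.0 ± 31.7), Abcb4 (24.5 ± 7.3) and Nr0b2 (21.9 ± 10.3 CPM per kb) closed the order, and neighbours among these 5 differed by less than the larger SD too. On the MCD diet Slc10a1 was still first at 156 ± 56 CPM per kb but within its own SD of Abcb11 (132 ± 49), Cyp27a1 (122 ± 21) and Cyp8b1 (106 ± 50). Cyp7b1 (12.0 ± 8.1 CPM per kb) and Nr0b2 (16.2 ± 9.9 CPM per kb) were the lowest on the MCD diet and differed by less than either SD. These levels pool the sexes, which differ for Cyp7b1. Exon lengths are from GENCODE M21 and were not those used by the submitters. The 9383 bases of Abcb4 include long bins with few counts, with bins placed by coordinate order. On the control diet bin 18 (2016 bases) held 0.24 CPM and bin 7 (1586 bases) 1.79 CPM, where bin 16 (204 bases) held 15.2 CPM. The value of Abcb4 per kb, and so its place in the order on either diet, rests on that annotated length.

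After group and sex were taken out, 11 of the 36 pairs of these genes were related over the 36 libraries (permutation test with 100000 resamples, Benjamini-Hochberg over the 36 pairs), 10 of them positively. The strongest relation was between Cyp8b1 and Slc10a1, with Pearson's r = 0.82 (p = 1e-05, the smallest possible, adjusted p = 7.2e-05) and Spearman's rho = 0.68 (p = 2e-05, adjusted p = 0.00036). It was 0.76 without the 2 libraries farthest from the median, 0.83 and 0.81 within low and high mt-Nd6, and 0.82 without control CT08 (a). Cyp27a1 and Slc10a1 had r = 0.78 (rho = 0.66) and Cyp8b1 and Nr1h4 r = 0.77 (rho = 0.68), both with permutation p = 1e-05. The one negative pair was Abcb4 and Slc10a1, with r = -0.63 (rho = -0.54, permutation p = 6e-05 and 0.0008), and r = -0.40 without control CT08 (a). The relation of Cyp7b1 and Slc10a1 (r = 0.47, rho = 0.21, permutation p = 0.00388 and 0.2284) rested on few libraries. Its r was 0.22 without the 2 libraries farthest from the median, and 0.23 without control CT08 (a) alone. Cyp7a1, Abcb11 and Nr0b2 were in none of the 11 pairs. All these libraries share their normalization.

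Among 13840 genes with a mean of at least 1 CPM, the level over the 36 libraries most like that of Slc10a1 was that of Mfsd4b1 (r = 0.95), and for Cyp27a1 it was 1300017J02Rik (r = 0.95). Cyp7b1 was most like Selenbp2 (r = 0.95), a gene of the male-biased list, and Cyp8b1 most like Baat (r = 0.91), which joins bile acids to taurine or glycine. For Abcb11 the nearest gene was Cbs (r = 0.92), the cystathionine β-synthase of homocysteine removal. Abcb4 was most like Serpina7 (r = 0.90), Nr1h4 like Ecsit (r = 0.86), Cyp7a1 like Ankrd9 (r = 0.80) and Nr0b2 like Cxxc5 (r = 0.75). These are Pearson correlations of log2 levels over libraries that share diet, time, sex and depth, given as a description.

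Of 19 other genes of bile acid synthesis, 4 were higher on the MCD diet (25.3% of all genes were), 10 lower (21.2%) and 5 not called, with a median difference of -0.30 against 0.02 over all genes. Slc27a5, the bile acid CoA ligase, was lower by 1.27 (842 ± 168 against 351 ± 87 CPM), and Cyp2c70, which makes muricholic acids, was lower by 1.12 (500.5 ± 135.8 against 237 ± 82 CPM). The reductase Akr1d1 was lower by 0.64. Cyp39a1, the oxysterol 7α-hydroxylase for 24-hydroxycholesterol, was higher by 1.27 (49.5 ± 26.6 against 111.5 ± 22.9 CPM), opposite to Cyp7b1. Of 18 other transport genes, 5 were higher, 6 lower and 7 not called, with a median of -0.13, where 25.3% of all genes were higher and 21.2% lower. On the export side of the blood membrane Slc51b (OSTβ) was higher by 1.82, at low levels (0.63 ± 0.56 against 2.00 ± 1.22 CPM). Abcc4 (MRP4) was higher by 1.48 (4.36 ± 3.37 against 13.25 ± 12.03 CPM) and Abcc3 (MRP3) by 0.75 (129.1 ± 38.8 against 218.5 ± 55.85 CPM). Slc51a, which encodes the partner subunit of OSTβ, had a difference of -1.96 that missed the threshold (adjusted p = 0.119) at 0.16 ± 0.20 against 0.066 ± 0.121 CPM. On the uptake side Slco1a1 (-2.32), Slco2b1 (-0.46) and Slco1b2 (-0.39) were lower and Slco1a4 was higher by 0.88. Slc10a5, a relative of Slc10a1, was lower by 0.74.

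Of 21 other genes of bile acid sensing and control, 5 were higher (25.3% of all genes were), 3 lower (21.2%) and 13 not called, with a median of 0.04. The FGF coreceptor Klb (-0.36) and Klf15 (-0.37) were lower, and Ppargc1a was higher by 0.38. Hnf4a (0.08, adjusted p = 0.258) and Nr5a2 (0.04, adjusted p = 0.595), activators of synthesis genes, missed the threshold. Of 8 genes of bile acid detoxification 2 were higher and 3 lower, against the same shares of all genes, among them Cyp2b10 (1.99), Cyp3a11 (0.83) and the sulfotransferase Sult2a8 (-1.64). Each SD above is over 18 libraries a diet, and Abcc3, Slc51a, Slco2b1, Slco1b2, Hnf4a and Nr5a2 were picked after their values were seen.

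The tissue label was met by the hepatocyte markers: the 7 summed to 9.51e+04 to 1.31e+05 CPM on the control and 7.25e+04 to 1.34e+05 CPM on the MCD diet, and none was at 0 in any library. Of the markers of other cells, those of macrophages stood farthest above the 25.3% of all genes that were higher. Of 11 macrophage markers 10 were higher (sum 329.5 to 812.7 CPM on the control and 458.1 to 1074 CPM on the MCD diet), of 9 stellate cell markers 4 (281.8 to 636.7 against 325.7 to 816.9 CPM), of 8 sinusoidal endothelium markers 3 (372.7 to 502.8 against 395.7 to 537.9 CPM), of 8 lymphocyte and neutrophil markers 3 (9.38 to 40.3 against 19.7 to 66.3 CPM) and of 11 cholangiocyte markers 2 (169.7 to 217.2 against 170.2 to 216.1 CPM). The median difference was 0.57 for the macrophage, 0.32 for the stellate cell, 0.32 for the lymphocyte and neutrophil, 0.08 for the endothelial and 0.05 for the cholangiocyte markers, against 0.02 over all genes. Of 5 erythrocyte markers 4 were lower (130 to 452.5 against 93.7 to 272.8 CPM), where 21.2% of all genes were lower. Of the hepatocyte markers 1 was higher and 4 lower, of 10 periportal markers 1 higher and 6 lower (7057 to 14740 against 6308 to 10780 CPM), and of 10 pericentral markers 1 higher and 1 lower (1738 to 12060 against 3993 to 11710 CPM). Their median differences were -0.27, -0.31 and 0.08, and that of the erythrocyte markers was -0.80. Cftr, Cldn4 and Krt7 among the cholangiocyte markers and Cd8a, S100a8 and S100a9 among the lymphocyte and neutrophil markers were at 0 in at least 1 library. The part of these cell types in the differences of the 9 genes was not tested.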

How the data were processed

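Poly(A)-selected RNA from liver was sequenced as stranded libraries, per the labels' protocols. The authors deposited 1 table of raw counts per gene for 36 liver libraries and 1 table of counts per exon bin for each library. Trimmomatic, HISAT2, StringTie and DESeq2 and build GRCm39 are named in the submitters' processing notes, without versions or roles, and the counter is not given in the sources used here. Bin files of 2 control libraries at CT00 were incomplete and were left out of the exon test.

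The counts were tested with edgeR 4.0.16 (R 4.3.3; genes kept by filterByExpr with a minimum count of 10, TMM scaling, robust quasi-likelihood F tests) in a model of the 12 groups plus sex, with p-values adjusted by Benjamini-Hochberg over 20249 genes. Tests named only by an adjusted p in the report are this one. The mean diet effect averages the 6 contrasts, the 24 h waves are contrasts of the same fit, and adding a diet-by-sex interaction gave the comparison of diet effects between the sexes. Peak times come from cosine fits to log2 CPM with a prior count of 2. Exon use was tested with edgeR's diffSpliceDGE (Simes) on 34 libraries. Alternatives were DESeq2 1.42.0, limma 3.58.1 (voom), other scalings, no filter, no sex term, a replicate block, the kind of library as a term, each kind alone, each time alone, and every library left out in turn. The test was checked on simulated counts.

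The 9 genes and all gene lists were chosen with earlier results of these data known. Named list genes are the up to 3 with the largest change in each direction among those called, with a mean of at least 1 CPM. Not every gene this rule picks is reported here. Each replicate is 1 mouse. Replicate libraries differed by far more than counting noise (chi-square per degree of freedom of at least 27.2), so none was counted as a duplicate. Gene positions and lengths are from GENCODE M21 (GRCm38), in which 22552 of the 22823 genes were found, and promoters from RefSeq (GRCm38.p6), which had 7 of the 9 genes.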

Additional observations from a re-analysis of the deposited data

Results flagged for a closer look

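The 6 females of each diet were searched for an extreme value in each of the 9 genes (18 groups, where chance gives about 1 in 20). In 1 of them the MCD female at CT20 lay far from the rest, with 50.6 CPM of Nr0b2 against 4.50 to 18.6 CPM in the other females on the MCD diet, which were taken at the other times.

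The 24 h wave differed between the diets by a test of the difference itself for Abcb11 (adjusted p = 0.0139) and for Nr0b2 (adjusted p = 0.0234).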

How the results depend on the processing

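With each library left out in turn, the counts for the mean diet effect were 5 to 7 of the 9 genes and 8964 to 10049 of all genes. For CT00 they were 0 to 3 and 1229 to 3059, for CT04 1 to 6 and 1994 to 4249, for CT08 0 to 1 and 37 to 1212, for CT12 0 to 3 and 1249 to 3810, for CT16 0 to 3 and 1140 to 3160, and for CT20 0 to 4 and 1238 to 2845. They were 0 to 1 and 47 to 351 for the change of the diet effect with time, 3 to 6 and 2863 to 3957 for waves on the control diet, 2 to 4 and 4943 to 6240 for waves on the MCD diet, 1 to 2 and 634 to 1243 for waves that differ, 1 to 3 and 1396 to 2478 for sex, and 0 to 2 and 229 to 497 for the diet effect between the sexes.

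Within the libraries of low mt-Nd6 2 of the 9 genes and 4471 of all genes had a mean diet effect, and within those of high mt-Nd6 5 and 5042, against 5 and 9426 in all, with fewer libraries in each. Scaling by library totals alone turned Abcb11 to 0.24 and gave 3971 genes at CT00, 1 of the 9 and 6475 genes at CT12, 2 and 4162 at CT16, and 3560 genes at CT20. Fits of the 6 libraries of a time alone gave 1406 genes at CT00, 2 of the 9 and 1272 at CT04, 0 genes at CT08, 0 of the 9 and 855 at CT12, and 2 of the 9 at CT16. DESeq2 gave 589 genes at CT08, 2 of the 9 at CT16, 2 and 1209 for the change with time, 1839 genes with differing waves, and 2 and 712 for the diet effect between the sexes. Without the sex term there were 140 genes at CT08, 103 for the change with time and 1 of the 9 with differing waves. Without control CT08 (a) there were 1 of the 9 and 1212 genes at CT08, 3 of the 9 at CT16, 283 genes for the change with time, and 2 of the 9 for the diet effect between the sexes. The gene-level F test gave 669 genes with differing exon use, the fit without control CT08 1 gave 558, and leaving out replicate 1, 2 or 3 gave 294, 197 and 184, with Slc10a1 lost in the last. Within high mt-Nd6 7 pairs of genes were related. The cause of these changes was not tested.

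Same-numbered libraries did not deviate together (r above 0.1 in 5 of 16 pairs, median -0.01), so the numbers do not pair the mice. The replicate block was fitted to the 34 numbered libraries, so it also left out both male control libraries of CT08, control CT08 (a) among them. Its changes cannot be put down to the block alone. In that fit the mean diet effect was 0.12 for Cyp7a1 (adjusted p = 0.763) and -0.44 for Nr0b2 (adjusted p = 0.104). There 115 genes changed their diet effect with time, and 3 of the 9 had waves on the control diet. Cyp7a1 had a wave on the MCD diet (adjusted p = 0.0062), and 1 of the 9 and 651 genes had differing waves (Abcb11 at adjusted p = 0.0615). The lowest level of any of the 9 genes was 4.50 CPM, in libraries of at least 52.6 M counts.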

Other observations

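In the suprachiasmatic nucleus, 3 of the 9 genes were present in the gene table of 15759 genes. Cyp7b1 held 10.2 ± 2.31 CPM on the control and 9.95 ± 2.38 CPM on the MCD diet (SD, n = 18 each), Abcb4 3.61 ± 1.02 and 3.51 ± 0.99 CPM, and Cyp27a1 1.69 ± 0.97 and 1.73 ± 0.65 CPM. The diets overlapped for each of them, and these differences were not tested.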
